A study of Mus musculus with 48 samples.

Results

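Transcript levels were compared between sensory neuron cultures given a pool of siRNAs against Jun (siJun, 4 libraries) and cultures given a control pool (siCONTROL, 4 libraries). These 8 libraries were taken by their treatment labels from a series of 48 libraries in 12 groups, and all genes were examined. The cultures came from the dorsal root ganglion (DRG), which holds the cell bodies of sensory neurons, of adult wild-type mice, and were enriched for neurons. The siRNAs were ON-TARGETplus pools, given with Dharnafect 2 (spelled as in the labels) immediately after isolation, and RNA was taken at 42 h from cells kept in Neurobasal-A with B27. Cultures treated in the same way with siAtf3, siAtf4, siStat3, siKlf6, siRest or siAlyref (24 libraries) served to ask which differences from siCONTROL also separated siJun from other knockdowns. An untransfected group taken at t=0 (4 libraries) gave each gene's level before culture. The series asked about factors that respond to axon injury, and isolation cuts the axons of all these neurons, the siCONTROL ones included. Jun was targeted by 1 pool, its protein was not measured here, and the siRNA could enter any cell of the dish, glia included. Whether the replicates of a group came from separate animals or dishes is not in the labels, and the p-values therefore reflect the spread among these libraries, some or all of which may be technical.

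Jun is a basic leucine zipper protein that binds DNA as a dimer, with itself, with other Jun proteins, with Fos proteins or with ATF proteins. Dimers of Jun and Fos proteins are known as AP-1 and recognise the element TGACTCA, which reads TGAGTCA on the other strand, while dimers with ATF proteins can bind TGACGTCA. The kinase JNK phosphorylates Jun, and both are activated in sensory neurons when their peripheral axon is cut. Jun and Atf3 are induced together in that response, and loss of Jun from neurons is known to slow axon regeneration in mice.

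The 4 siJun libraries held 4222035 to 5873874 expected counts and the 4 siCONTROL libraries 3437120 to 6621566. Over the 14876 genes tested each siJun library had a mean correlation of 0.9609 to 0.9645 with the others of its group. In siCONTROL it was 0.9563 to 0.9610, and no library of either group stood apart. Of the other knockdowns, siKlf6 replicate 1 was shallow (1539198 counts) and stood apart from its group (mean correlation 0.9313), and siRest replicate 1 was shallow too (1937372 counts). Levels are in CPM, which set each count against the total of its library, adjusted by TMM, a between-library scaling. The deposited values appear to be weighted by transcript length already, and levels are compared here between libraries and not between genes. The t=0 levels were scaled with siJun and siCONTROL in a separate step.

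Jun itself had 102, 92.1, 81.7 and 80.4 CPM in the 4 siJun libraries, against 296, 323, 275 and 302 CPM in the 4 siCONTROL libraries. The groups lay far apart, with siJun at 29.8% of siCONTROL (log2 fold change -1.74, SE 0.086, adjusted p = 2.1e-14), so the knockdown was partial at the level of RNA. The t=0 cultures averaged 306 CPM. Junb, a Jun family member often found to oppose Jun, moved the other way: it had 120, 95.0, 93.3 and 102 CPM with siJun, against 61.4, 61.3, 60.7 and 54.7 CPM with siCONTROL. The 2 groups did not overlap (log2 fold change 0.79, SE 0.126, adjusted p = 7.8e-05), and every siJun library also lay above all 28 other siRNA libraries.

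Of 16 AP-1 and partner genes that could be tested out of 19, Junb alone rose and Jun alone fell. The share of all 14876 genes tested that passed with siJun was 3.19% for rises and 4.59% for falls, from the quasi-likelihood F test of edgeR with Benjamini-Hochberg adjustment. Jund, the third Jun protein, had 303 to 328 CPM with siJun, against 245 to 302 CPM with siCONTROL, ranges that just fail to meet, and did not pass (adjusted p = 0.18). Fos, a dimer partner of Jun, had 19.1 to 31.2 CPM with siJun and 17.2 to 29.2 CPM with siCONTROL, and these ranges largely coincided (adjusted p = 0.86). The Fos-related Fosl1 had 35.3 to 44.5 CPM with siJun and 38.2 to 54.0 CPM with siCONTROL (adjusted p = 0.28). Atf3, the injury-induced ATF partner, had 1125, 1086, 928 and 1107 CPM with siJun, against 1285, 1353, 1096 and 1250 CPM with siCONTROL (log2 fold change -0.23, adjusted p = 0.14). For Atf3, 2 of the 4 siJun libraries lay above the lowest siCONTROL library.

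Among 21 genes of the JNK pathway and its phosphatases 3 fell and 0 rose, and all 3 were dual-specificity phosphatases, which take phosphate off MAP kinases. Dusp10, which acts on JNK and p38, had 16.7, 15.6, 12.6 and 11.4 CPM with siJun, against 31.8, 28.2, 26.7 and 29.2 CPM with siCONTROL (2.05-fold lower, adjusted p = 1.6e-06). Dusp5, which acts on ERK, fell 1.601-fold (adjusted p = 6.2e-05), and the immediate early gene Dusp1 fell 1.44-fold (adjusted p = 5.6e-06). None of the 3 overlapped between the groups. The kinase genes of the list did not pass: Map3k12, which codes for the injury sensor DLK, had 34.0 to 42.4 CPM with siJun and 35.5 to 38.7 CPM with siCONTROL.

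Over all 14876 genes tested, 474 rose (3.19%) and 683 fell (4.59%) with siJun, and of these 73 rose and 94 fell at least 2-fold. Each list count against siCONTROL is to be read beside these shares. Where a list holds few calls, its genes are described and the count is no result about the list. The median log2 fold change of all genes was 0.00, and 49.9% of genes were lower, passed or not. The 4 siJun and 4 siCONTROL libraries did not overlap in 12.8% of the genes tested. From the genes that passed, did not overlap and reached a mean of 5 CPM in the higher group (977 genes), the 15 with the largest fold in each direction are named in the next paragraphs. Of the 127 genes named below or above as having risen or fallen, Jun apart, 88 passed in the same direction in every one of the 17 alternative fits that tested them. The other 39 failed to pass in at least 1 of them, and this is given beside each of those genes, with libraries named by group and replicate number.

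**Figure D1:**
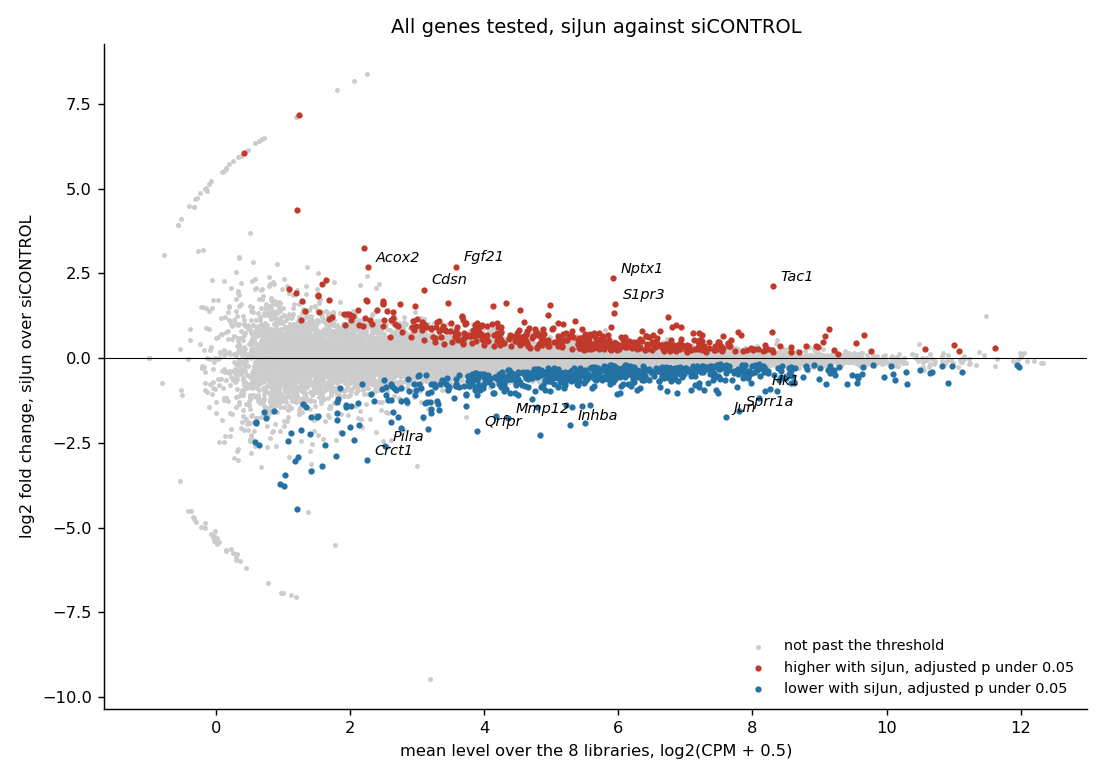
Each point is 1 of 14876 genes: the horizontal axis gives its mean level over the 8 libraries as log2(CPM + 0.5), and the vertical axis its fitted log2 fold change, siJun over siCONTROL. Red points are the 474 genes that rose and blue points the 683 that fell at an adjusted p under 0.05, and grey points did not pass. The outer arms hold genes at or near 0 counts in 1 of the groups, whose fitted size depends on the fit and is no bound.

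Among the 15 largest rises were 3 genes known from sensory neurons. In a bulk culture, a different number of cells of a type and a different amount of RNA per cell cannot be told apart. Nptx1, a pentraxin released at synapses that gathers glutamate receptors, had 128, 122, 64.5 and 87.9 CPM with siJun, against 19.5, 26.3, 14.7 and 17.8 CPM with siCONTROL (5.11-fold, log2 fold change 2.35, SE 0.229, adjusted p = 3.5e-08). The lowest siJun library was still well above the highest siCONTROL library. S1pr3, a receptor for sphingosine 1-phosphate carried by nociceptors, had 92.8, 95.0, 89.6 and 92.2 CPM with siJun, against 26.7, 32.1, 29.4 and 34.5 CPM with siCONTROL (3.002-fold, SE 0.095 on the log2 scale, adjusted p = 2.1e-12). The spread within each group was a few CPM, and the siJun level was close to the t=0 mean of 91.9 CPM. Tac1, the precursor of substance P, is described with the neuropeptides.

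The other rises were of genes at lower levels. Fgf21, a secreted hormone of the fibroblast growth factor family, had 14.1, 33.2, 15.7 and 16.2 CPM with siJun, against 2.997, 2.19, 2.05 and 5.10 CPM with siCONTROL (6.50-fold, adjusted p = 0.0013), with siJun replicate 2 far above the others. Tmem173, which codes for the innate immune adaptor STING, had 37.1, 70.0, 37.8 and 41.6 CPM with siJun, against 22.5, 19.7, 6.49 and 14.4 CPM with siCONTROL (2.99-fold, adjusted p = 0.0025). The secreted glycoprotein gene Nell2 had 9.66 to 12.1 CPM with siJun and 2.997 to 4.27 CPM with siCONTROL (2.92-fold, adjusted p = 5.7e-06). Also higher without overlap were Acox2, a peroxisomal oxidase (6.41-fold), Cdsn, a cell adhesion protein of skin (4.06-fold), Zcchc12 (3.08-fold), Cntnap5b, of the contactin-associated family (3.05-fold), and Fam19a3, a chemokine-like gene (3.03-fold). Zfp950, one of a large family of similar zinc finger genes among which reads may be shared, was 3.08-fold higher. The remaining 3 passed with all libraries but not in every alternative. Slc16a14, of the monocarboxylate transporter family, rose 3.25-fold but lost its call without siJun 3, siJun 4, siCONTROL 2 or siCONTROL 4 (adjusted p up to 0.093). 1700019D03Rik rose 3.18-fold but lost its call without siJun 3 or siCONTROL 4 (adjusted p up to 0.10), and the glycosyltransferase gene B4galnt2 rose 3.10-fold but not without siCONTROL 3 (adjusted p = 0.075, the highest of its alternatives).

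The 15 largest falls included Jun and several secreted factors and receptors. Inhba, which codes for the subunit of activin A, had 16.4, 18.4, 15.7 and 11.9 CPM with siJun, against 69.8, 72.1, 52.8 and 49.8 CPM with siCONTROL (3.93-fold lower, SE 0.199 on the log2 scale, adjusted p = 7.2e-08). Star, whose protein carries cholesterol into mitochondria, had 19.0, 25.5, 14.5 and 17.5 CPM with siJun, against 66.2, 105, 41.7 and 68.8 CPM with siCONTROL (3.74-fold lower, adjusted p = 1.9e-06). Mmp12, a macrophage elastase of the matrix metalloproteinases, had 9.49, 8.72, 8.96 and 8.58 CPM with siJun, against 35.4, 23.8, 38.8 and 25.7 CPM with siCONTROL (3.44-fold lower, adjusted p = 1.5e-07). All 3 were below 1 CPM at t=0, so the siJun cultures held an intermediate level. Qrfpr, a neuropeptide receptor, had 4.66, 3.06, 8.27 and 4.66 CPM with siJun, against 26.1, 26.4, 21.0 and 21.1 CPM with siCONTROL (4.47-fold lower, adjusted p = 2.7e-09).

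Pilra, an inhibitory immunoglobulin-like receptor, fell 6.08-fold to 0.517 to 2.59 CPM with siJun, against 6.49 to 10.8 CPM with siCONTROL (adjusted p = 2.7e-05). The uncharacterised 2210017I01Rik fell 4.80-fold (adjusted p = 1.4e-05) and Gpr119, a lipid receptor, 4.06-fold (adjusted p = 1.9e-06). Xirp2, an actin-binding protein of muscle, had 0.518 to 1.89 CPM with siJun, against 3.76 to 5.79 CPM with siCONTROL (4.63-fold lower, adjusted p = 0.00050). Mall, related to a membrane raft protein, fell 3.90-fold, Aim2, a sensor of cytosolic DNA, 4.16-fold, and Fgf3, a fibroblast growth factor, 4.23-fold. Oas1e fell 5.36-fold (adjusted p = 0.0054), but it belongs to a cluster of near-identical genes that can exchange reads. Counts were near 0 with siJun for the last 2. Crct1 had 2.93, 0.707, 0 and 0 CPM with siJun and 3.24 to 14.1 CPM with siCONTROL, and lost its call without siJun 3, siJun 4 or siCONTROL 2, in the fit to siJun and siCONTROL alone and with limma-voom (adjusted p up to 0.16). Rasal1, a Ras GTPase-activating protein, had 0 to 2.07 CPM with siJun and 3.30 to 6.10 CPM with siCONTROL (adjusted p = 0.0013), and missed only with the replicate number as a block in those 2 groups alone (adjusted p = 0.051, the highest of its alternatives).

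**Figure D2:**
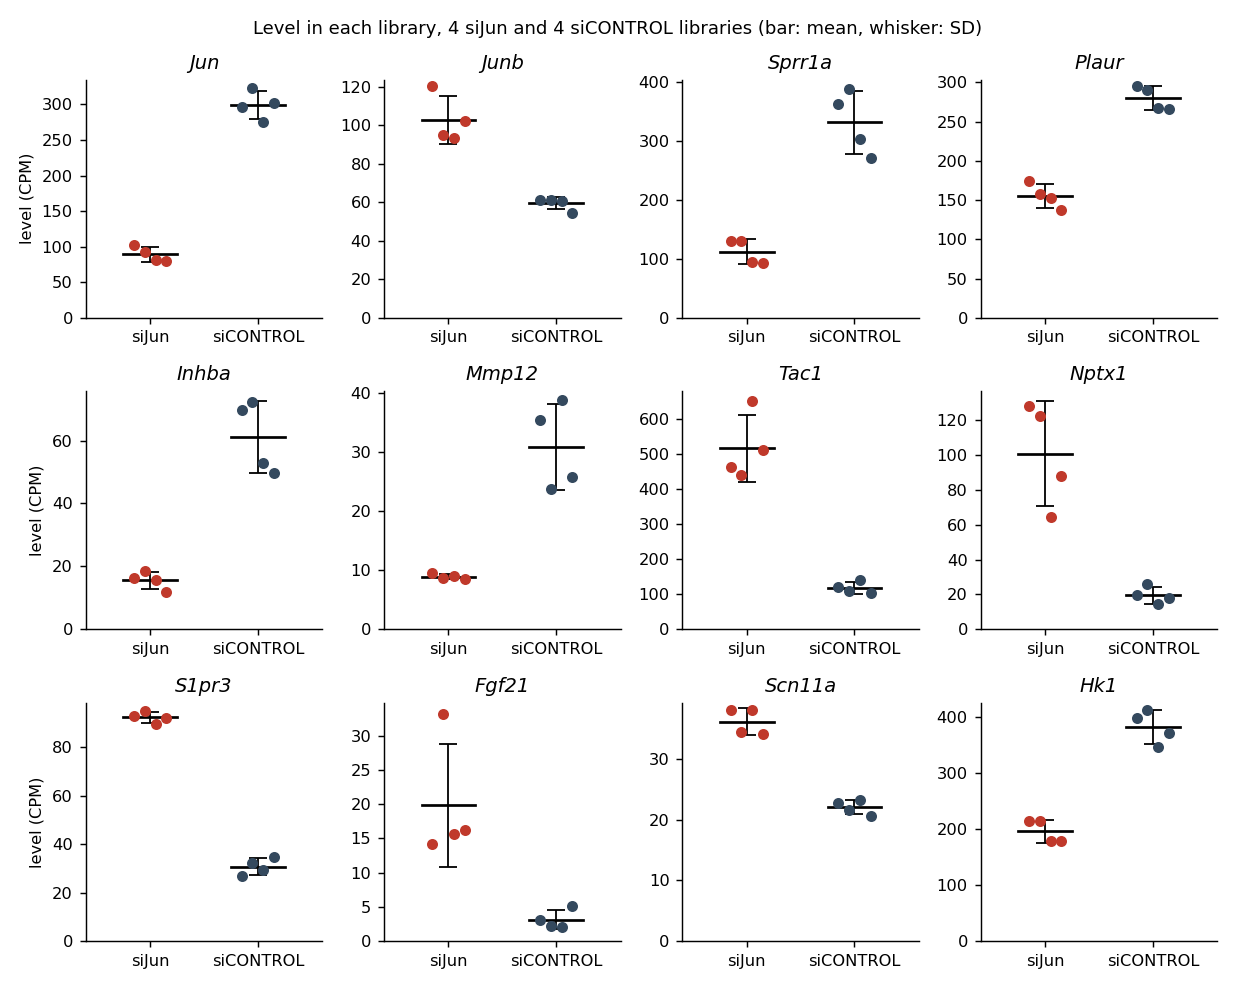
Level in CPM of 12 genes in each of the 4 siJun libraries (left) and the 4 siCONTROL libraries (right), with a bar for the mean and a whisker for the SD; each axis starts at 0. The 2 groups do not overlap in any of the 12 panels, and Fgf21 shows siJun replicate 2 at 33.2 CPM above the other 3.

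Regeneration-associated genes are genes that sensory neurons switch on after axon injury, and many code for growth cone, cytoskeleton and adhesion proteins. Of 35 such genes, all tested, 21 fell and 0 rose with siJun, against 4.59% and 3.19% of all genes. Their median log2 fold change was -0.41, against 0.00 over all genes, and 22 lay entirely below the siCONTROL libraries. The genes were listed with their injury response known and with earlier results of these data known, so the count describes the list and is no independent evidence of its direction.

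The largest fall was that of Sprr1a, a cornified envelope protein known to promote axon outgrowth. It had 131, 130, 95.3 and 92.5 CPM with siJun, against 362, 389, 304 and 272 CPM with siCONTROL (2.96-fold lower, SE 0.164 on the log2 scale, adjusted p = 1.5e-07), and 0.491 CPM at t=0. A wide gap separated the 2 groups, and the siJun cultures still held far more than at t=0. Anxa1, a phospholipid-binding annexin, had 24.8, 16.0, 27.4 and 26.1 CPM with siJun, against 67.7, 51.5, 65.1 and 68.4 CPM with siCONTROL (2.64-fold lower, adjusted p = 3.9e-05). Plaur, the receptor for urokinase, had 175, 158, 152 and 138 CPM with siJun, against 295, 290, 268 and 266 CPM with siCONTROL (1.80-fold lower, SE 0.075 on the log2 scale, adjusted p = 8.3e-09).

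The promoter windows of Sprr1a and Plaur, and of 3 of the genes with the largest folds, are shown because each holds the AP-1 element, TGACTCA or TGAGTCA, printed in capitals. The windows are RefSeq promoters of GRCm38.p6, 250 bases before to 50 after the gene's start, written 5′ to 3′ on the gene's strand.
Sprr1a, chr3:92485832-92486131, minus strand: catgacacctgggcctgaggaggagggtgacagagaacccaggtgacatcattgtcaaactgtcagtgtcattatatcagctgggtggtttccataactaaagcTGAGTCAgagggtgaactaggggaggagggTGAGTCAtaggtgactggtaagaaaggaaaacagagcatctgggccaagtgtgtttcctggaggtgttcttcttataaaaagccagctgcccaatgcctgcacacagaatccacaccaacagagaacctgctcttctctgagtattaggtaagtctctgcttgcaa
Plaur, chr7:24462233-24462532, plus strand: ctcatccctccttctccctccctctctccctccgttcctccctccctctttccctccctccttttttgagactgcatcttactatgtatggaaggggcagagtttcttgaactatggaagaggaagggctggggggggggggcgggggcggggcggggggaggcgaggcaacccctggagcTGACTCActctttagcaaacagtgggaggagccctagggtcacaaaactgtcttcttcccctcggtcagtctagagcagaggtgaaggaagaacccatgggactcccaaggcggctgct
Mmp12, chr9:7347124-7347423, plus strand: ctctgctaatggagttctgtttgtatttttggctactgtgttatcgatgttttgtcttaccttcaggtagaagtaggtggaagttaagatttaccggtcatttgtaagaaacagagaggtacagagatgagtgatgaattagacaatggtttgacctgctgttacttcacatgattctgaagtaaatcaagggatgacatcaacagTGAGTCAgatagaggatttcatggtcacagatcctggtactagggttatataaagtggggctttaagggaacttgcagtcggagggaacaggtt
Xirp2, chr2:67445752-67446051, plus strand: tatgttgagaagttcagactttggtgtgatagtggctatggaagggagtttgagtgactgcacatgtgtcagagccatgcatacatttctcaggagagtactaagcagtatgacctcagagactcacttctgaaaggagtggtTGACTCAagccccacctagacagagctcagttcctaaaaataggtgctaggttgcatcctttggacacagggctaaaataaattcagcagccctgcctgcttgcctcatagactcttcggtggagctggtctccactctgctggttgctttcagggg
Acox2, chr14:8258970-8259269, minus strand: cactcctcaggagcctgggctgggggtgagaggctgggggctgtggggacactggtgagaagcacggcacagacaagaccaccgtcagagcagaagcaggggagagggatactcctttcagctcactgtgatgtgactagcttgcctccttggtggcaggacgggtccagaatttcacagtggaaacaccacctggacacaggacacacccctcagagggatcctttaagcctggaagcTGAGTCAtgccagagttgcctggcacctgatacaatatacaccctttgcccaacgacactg
Sprr1a held 2 copies, 146 and 116 bases upstream of its start, Plaur 1 copy 69 bases upstream, Mmp12 1 copy 44 bases upstream, Xirp2 1 copy 107 bases upstream and Acox2, which rose, 1 copy 11 bases upstream. Mmp12 has a second window without a match, and Acox2 a second window with 2 matches, of which 1 is the copy shown.

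Such a match is a description of the letters and not a bound site. Of 27025 genes with a RefSeq promoter, 1607 (5.95%) held TGACTCA or TGAGTCA in at least 1 window, and so did 555 of the 11050 tested genes with one (5.02%). Among genes that fell with siJun 36 of 530 held it (6.79%), and among genes that rose 18 of 359 (5.01%). The element TGACGTCA, which is the same on both strands and shares no full match with the other, was present for 2.64% of the genes that fell, 1.95% of those that rose and 3.58% of those tested. A promoter was found for 25 of the 35 regeneration-associated genes, and 4 held the AP-1 element: Sprr1a, Anxa2, Plaur and Nts. Of these, Anxa2 had 2081 to 2442 CPM with siJun and 2329 to 2721 CPM with siCONTROL (adjusted p = 0.068) and Nts 374 to 466 CPM with siJun and 436 to 572 CPM with siCONTROL (adjusted p = 0.19), and neither passed. Of the genes with the largest folds, 11 of 15 rises and 10 of 15 falls had a promoter, with 1 match (Acox2) and 2 matches (Xirp2 and Mmp12).

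The other regeneration-associated genes that fell did so by 1.28- to 1.97-fold. Cckbr, a receptor for gastrin and cholecystokinin, had 16.2, 9.90, 15.3 and 9.89 CPM with siJun, against 29.4, 23.2, 26.8 and 22.9 CPM with siCONTROL (1.97-fold lower, adjusted p = 0.00019). The laminin receptor subunit Itga7 had 463, 441, 345 and 376 CPM with siJun, against 764, 711, 610 and 666 CPM with siCONTROL (1.69-fold lower, adjusted p = 2.8e-06). Cd44, the hyaluronan receptor, fell 1.64-fold (adjusted p = 6.9e-06). Growth cone proteins moved less: Gap43 had 518 to 695 CPM with siJun and 782 to 886 CPM with siCONTROL (1.40-fold lower, adjusted p = 0.00082), and Basp1 232 to 303 CPM with siJun and 337 to 395 CPM with siCONTROL (1.42-fold lower). The receptor genes Flrt3 (1.44-fold) and Tnfrsf12a (1.43-fold), the stress gene Gadd45a (1.31-fold) and the semaphorin gene Sema6a (1.33-fold) fell as well, without overlap between the groups.

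In this list 3 calls were fragile. The small heat shock gene Hspb1 fell 1.33-fold but not without siJun 3, siJun 4 or siCONTROL 2 (adjusted p up to 0.076). Sox11, a transcription factor of growing neurons, fell 1.33-fold but not without siJun 1, siJun 2, siCONTROL 1 or siCONTROL 3, nor in the fit to the 2 groups alone (adjusted p up to 0.14). The receptor gene Gpr151 fell 1.28-fold but not without siCONTROL 2 (adjusted p = 0.061, the highest of its alternatives). Some well known members did not pass. Ecel1, a peptidase induced by nerve injury, had 193 to 237 CPM with siJun and 180 to 244 CPM with siCONTROL (adjusted p = 1.0), and the neuropeptide gene Gal had 214 to 360 CPM with siJun and 218 to 375 CPM with siCONTROL (adjusted p = 0.86). Both were far lower at t=0, Ecel1 at 0.911 CPM and Gal at 85.6 CPM.

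**Figure D3:**
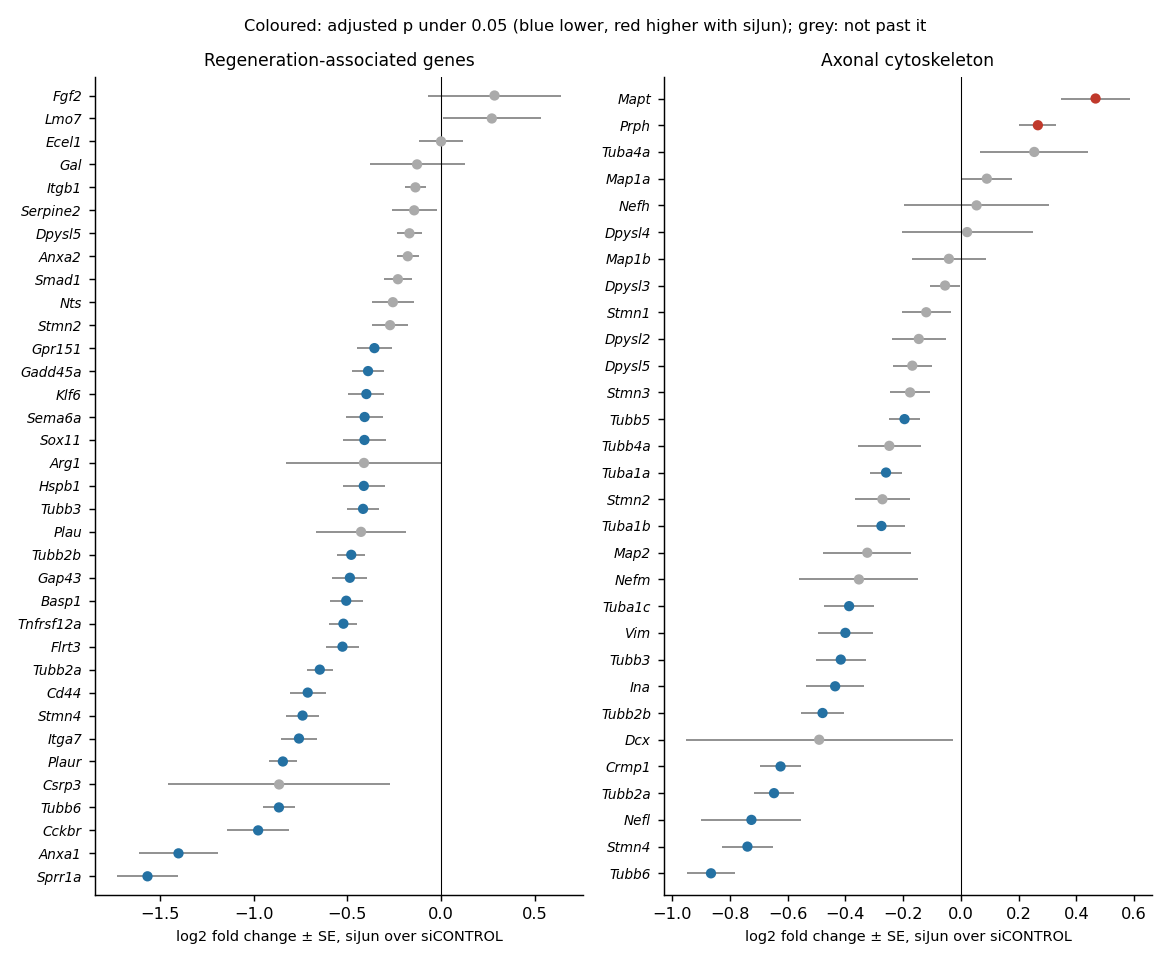
Fitted log2 fold change with its SE, siJun over siCONTROL, of 35 regeneration-associated genes (left) and 30 axonal cytoskeleton genes (right), ordered by value. Blue points fell and red points rose at an adjusted p under 0.05, and grey points did not pass: 21 of the 35 and 13 of the 30 are blue, and Mapt and Prph are red.

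Cytoskeleton genes, some of them also in the list above, fell in 13 of 30 and rose in 2, with a median log2 fold change of -0.27. Most of the tubulins were among them. Tubb6 had 111, 110, 91.0 and 107 CPM with siJun, against 189, 211, 178 and 184 CPM with siCONTROL (1.82-fold lower, adjusted p = 3.5e-08). Tubb2a fell 1.57-fold and Tubb2b 1.39-fold, but these near-identical copies can exchange reads, as can Tuba1a (1.20-fold lower) and Tuba1c (1.31-fold lower). The neuronal Tubb3 had 1651 to 2134 CPM with siJun and 2311 to 2803 CPM with siCONTROL (1.33-fold lower, adjusted p = 0.0020). Tubb5 and Tuba1b fell 1.14- and 1.21-fold, Tubb5 not without siJun 2, siJun 3 or siCONTROL 1 (adjusted p up to 0.12) and Tuba1b not without siJun 2, siJun 3, siJun 4, siCONTROL 1 or siCONTROL 2 (adjusted p up to 0.13). Neither passed with no filter on low counts or in the fit to the 2 groups alone.

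Stmn4, a stathmin that binds free tubulin, had 303, 291, 287 and 265 CPM with siJun, against 513, 468, 487 and 443 CPM with siCONTROL (1.67-fold lower, SE 0.090 on the log2 scale, adjusted p = 1.5e-06). Crmp1, which links semaphorin signals to microtubules, had 132 to 156 CPM with siJun and 210 to 233 CPM with siCONTROL (1.54-fold lower, adjusted p = 6.6e-07). The intermediate filament genes divided. Nefl fell 1.65-fold (adjusted p = 0.0066), Ina 1.35-fold and Vim 1.32-fold, Vim not without siJun 2 (adjusted p = 0.053, the highest of its alternatives). Prph, the filament of small sensory neurons, had 1780, 1618, 1707 and 1530 CPM with siJun, against 1355, 1411, 1427 and 1322 CPM with siCONTROL, and rose 1.20-fold (adjusted p = 0.0068). Mapt, the axonal microtubule protein tau, rose 1.38-fold (adjusted p = 0.012) but not without siCONTROL 3 (adjusted p = 0.059, the highest of its alternatives).

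Neuropeptide precursors moved in both directions, with 3 of 23 higher and 5 lower. Tac1, the precursor of substance P, which nociceptors release, had 463, 440, 651 and 510 CPM with siJun, against 121, 108, 142 and 103 CPM with siCONTROL (4.35-fold, log2 fold change 2.12, SE 0.176, adjusted p = 2.0e-09). Every siJun library was well above any siCONTROL library, and the t=0 mean was 639 CPM. The calcitonin gene-related peptide genes, often made in the same neurons, rose less: Calca had 2330, 2515, 2327 and 2096 CPM with siJun, against 1560, 1825, 2055 and 1682 CPM with siCONTROL (1.30-fold, adjusted p = 0.0044), and Calcb rose 1.38-fold (adjusted p = 0.0069).

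The peptide genes that fell included ones known to be induced by nerve injury. Adcyap1, the precursor of PACAP, had 984, 1177, 835 and 751 CPM with siJun, against 1433, 1817, 1606 and 1499 CPM with siCONTROL (1.70-fold lower, SE 0.108 on the log2 scale, adjusted p = 1.6e-05), and 145 CPM at t=0. Vgf, a granin-like precursor, fell 1.48-fold (adjusted p = 0.00058). The others were fragile. Npy, neuropeptide Y, had 29.7, 31.8, 5.52 and 18.5 CPM with siJun, against 64.1, 74.0, 54.2 and 34.8 CPM with siCONTROL, and fell 2.70-fold, but not without siJun 3, siJun 4, siCONTROL 1 or siCONTROL 2, nor in the fit to the 2 groups alone (adjusted p up to 0.10). Bdnf, a neurotrophin, fell 1.24-fold, but not without siJun 1, 3 or 4 or siCONTROL 1, 2 or 3, nor with no filter on low counts or in the 2 groups alone, with or without the replicate number as a block (adjusted p up to 0.13). Crh, corticotropin-releasing hormone, was lower at 0.560 to 1.73 CPM with siJun, against 3.08 to 4.50 CPM with siCONTROL, but lost its call without any 1 of 7 of the 8 libraries, siJun 1 being the exception, with no filter on low counts and with limma-voom (adjusted p up to 0.14).

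**Figure D4:**
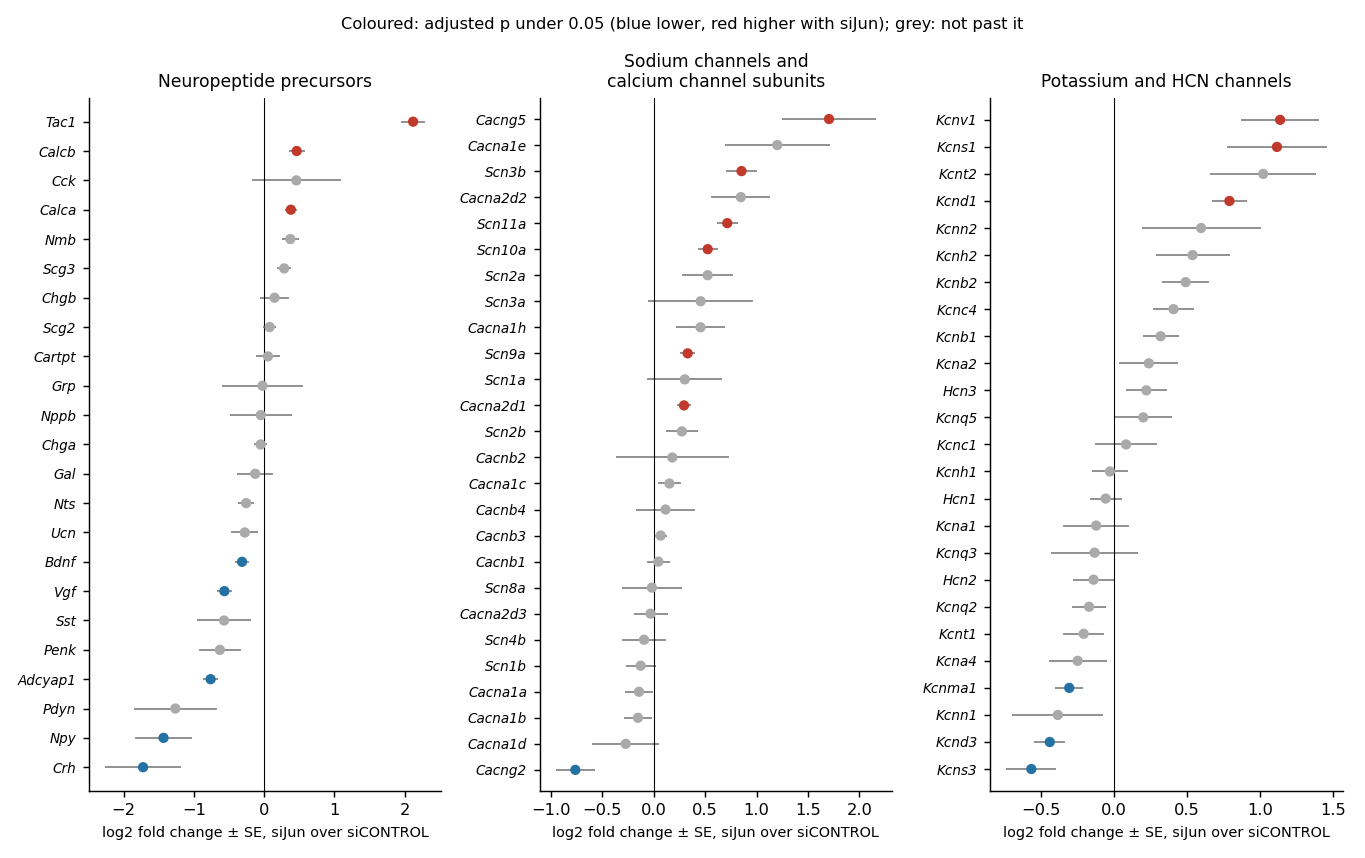
Fitted log2 fold change with its SE, siJun over siCONTROL, of 23 neuropeptide precursors (left), sodium channels with calcium channel subunits (middle) and potassium and HCN channels (right), ordered by value. Red points rose and blue points fell at an adjusted p under 0.05, and grey points did not pass; Tac1 stands far to the right of the other peptide genes at 2.12.

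Sodium channels rose in 4 of 11 and fell in 0, with a median log2 fold change of 0.33. The channels of nociceptors were among them. Scn11a, which codes for Nav1.9, had 38.1, 34.4, 38.1 and 34.1 CPM with siJun, against 22.8, 21.6, 23.2 and 20.6 CPM with siCONTROL (1.64-fold, SE 0.103 on the log2 scale, adjusted p = 2.1e-05). Scn10a, which codes for Nav1.8, had 133, 133, 121 and 130 CPM with siJun, against 96.8, 87.3, 91.8 and 83.4 CPM with siCONTROL (1.44-fold, adjusted p = 0.00056). Scn9a, which codes for Nav1.7, had 121 to 130 CPM with siJun and 92.3 to 106 CPM with siCONTROL (1.26-fold, adjusted p = 0.0047). The auxiliary subunit Scn3b rose 1.81-fold (adjusted p = 0.00021). At t=0 Scn11a averaged 363 CPM and Scn10a 660 CPM, so siJun and siCONTROL cultures alike held far less. The other channels of the list, such as Scn8a at 16.5 to 28.05 CPM with siJun and 14.5 to 30.5 CPM with siCONTROL, did not pass.

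Potassium and HCN channels rose in 3 of 25 and fell in 3, against 3.19% and 4.59% of all genes. Kcnd1, an A-type channel, had 48.7, 55.4, 44.1 and 51.5 CPM with siJun, against 24.9, 31.9, 31.3 and 26.4 CPM with siCONTROL (1.73-fold, SE 0.122 on the log2 scale, adjusted p = 4.9e-05). The silent subunit gene Kcnv1 rose 2.20-fold (adjusted p = 0.0055), and Kcnd3, of the same family as Kcnd1, fell 1.35-fold (adjusted p = 0.0079). The other 3 were fragile, and only 3 of the 6 passed without siJun 1, without siJun 4, with no filter on low counts or in the fit to the 2 groups alone. Kcns1 rose 2.17-fold, but not without siJun 1, 2 or 4 or siCONTROL 1 or 3 (adjusted p up to 0.15). Kcns3 fell 1.48-fold, but not without siJun 1, 3 or 4 or siCONTROL 2, 3 or 4 (adjusted p up to 0.15), and its groups overlapped. Kcnma1 fell 1.24-fold, but not without siJun 1, 2 or 4 or siCONTROL 3 or 4, nor with DESeq2 (adjusted p up to 0.17). None of Kcns1, Kcns3 and Kcnma1 passed with no filter on low counts or in the 2 groups alone, with or without the block.

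Of 15 calcium channel subunits 2 rose and 1 fell, and none of the 3 calls held throughout. In the fit to the 2 groups alone 1 passed. At a mean of 5 CPM 1 passed too, but Cacng5 and Cacng2 were below that filter and not tested. Cacna2d1, the target of gabapentin, had 158, 164, 188 and 172 CPM with siJun, against 137, 131, 138 and 150 CPM with siCONTROL, and rose 1.23-fold, though not without siJun 3 (adjusted p = 0.053, the highest of its alternatives). Cacng5 rose 3.26-fold at 2.93 to 11.3 CPM with siJun and 1.37 to 2.97 CPM with siCONTROL, but not without siJun 2, siCONTROL 3 or siCONTROL 4, nor in the fit to the 2 groups alone (adjusted p up to 0.10). Cacng2, an AMPA receptor partner, fell 1.70-fold, but not without siCONTROL 2, in the 2 groups alone with or without the block, or with DESeq2 (adjusted p up to 0.15).

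Nociceptor markers rose in 7 of 18 and fell in 1, with a median log2 fold change of 0.33, and 6 of the 8 stand in the lists above or below (Tac1, Calca, Scn10a, Scn11a, Trpv1 and Ret). The count of rises was 4 without siJun 1, siJun 3, siCONTROL 1 or siCONTROL 4. Prdm12, a transcriptional regulator of nociceptors, had 62.6, 64.8, 61.9 and 55.8 CPM with siJun, against 43.8, 48.0, 48.0 and 36.9 CPM with siCONTROL (1.38-fold, adjusted p = 0.029), but lost its call without siJun 1, 2 or 3 or siCONTROL 1 or 4 (adjusted p up to 0.11). Plxnc1, a semaphorin receptor, rose 1.40-fold, but not without siJun 1 or 3 or siCONTROL 1, 2 or 4 (adjusted p up to 0.14).

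Of 22 sensory transduction genes 2 rose and 0 fell. Tmem100, a partner of TRPA1 and TRPV1, had 21.7, 20.7, 18.3 and 16.8 CPM with siJun, against 8.69, 10.2, 10.9 and 7.19 CPM with siCONTROL (2.07-fold, adjusted p = 0.00078). Trpv1, the capsaicin receptor, had 29.0, 28.5, 25.3 and 19.8 CPM with siJun, against 18.9, 14.1, 24.3 and 13.2 CPM with siCONTROL; it rose 1.45-fold, with overlap, and not without siJun 1, 2 or 3 or siCONTROL 1, 2 or 4, with no filter on low counts or in the 2 groups alone with or without the block (adjusted p up to 0.17). The list held 1 call without siJun 1, 2 or 3 or siCONTROL 1 or 2, with no filter and in the fit to the 2 groups alone, and 4 with limma-voom. Trpa1, the irritant receptor, was 2.01-fold higher without passing (adjusted p = 0.16). Of 18 receptors for neurotrophins and GDNF factors 1 fell and 0 rose, and 2 passed without siJun 3, siJun 4 or siCONTROL 2, at a mean of 5 CPM, with DESeq2 and with limma-voom. The gene that fell was Ret, the signalling receptor of the GDNF family, with 366, 404, 298 and 330 CPM with siJun, against 543, 540, 443 and 522 CPM with siCONTROL (1.46-fold lower, adjusted p = 0.00042).

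Of 35 secreted growth factors and cytokines 7 fell and 2 rose, among them Inhba, Fgf3, Bdnf and Fgf21 given above. Csf1, which sensory neurons make after injury and to which microglia respond, had 67.6, 50.9, 46.9 and 45.3 CPM with siJun, against 97.1, 113, 94.3 and 102 CPM with siCONTROL (1.93-fold lower, SE 0.119 on the log2 scale, adjusted p = 2.4e-06). Gdf15, a stress hormone, had 25.9 to 29.3 CPM with siJun and 14.6 to 18.1 CPM with siCONTROL (1.68-fold, adjusted p = 0.0057). Without siCONTROL 1 only 5 of the 9 passed. Clcf1, a gp130 cytokine, fell 1.47-fold with overlap, but missed in 9 of 17 alternatives, which were those without siJun 2, 3 or 4 or siCONTROL 1 or 2, with no filter, with limma-voom, in the 2 groups alone, and without siKlf6 1 and siRest 1 (adjusted p up to 0.24). Il24 had 1.38, 0, 0 and 0 CPM with siJun and 2.32 to 6.29 CPM with siCONTROL, and lost its call without siJun 2, 3 or 4 or siCONTROL 1 or 2, or with limma-voom (adjusted p up to 0.096).

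Of 22 matrix proteases, plasminogen system genes and their inhibitors 5 fell and 0 rose, Mmp12 and Plaur among them. Plat, the tissue plasminogen activator, had 26.6 to 33.8 CPM with siJun and 44.3 to 53.3 CPM with siCONTROL (1.56-fold lower, adjusted p = 4.7e-05). Adam8, a membrane metalloprotease, fell 1.46-fold (adjusted p = 0.0045), but not in the fit to the 2 groups alone (adjusted p = 0.057, the highest of its alternatives).

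Integrins and adhesion receptors fell in 4 of 21 and rose in 2. Besides Itga7 and Cd44, the fibronectin receptor subunit Itga5 had 27.9, 24.5, 25.5 and 21.8 CPM with siJun, against 42.0, 31.5, 37.3 and 31.5 CPM with siCONTROL (1.42-fold lower, adjusted p = 0.0031), and the laminin receptor subunit Itga3 fell 1.44-fold (adjusted p = 0.0087). Chl1 and Alcam, adhesion molecules of growing axons, rose 1.30- and 1.29-fold. Chl1 lost its call without siJun 4 or siCONTROL 1, 2 or 3 or in the fit to the 2 groups alone (adjusted p up to 0.18), and Alcam without siJun 2 or 4 or siCONTROL 1, 2 or 3 or with no filter on low counts (adjusted p up to 0.15).

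Other transcription factors of the injury response rose in 2 of 30 and fell in 5. Egr1, an immediate early gene, had 35.2, 33.9, 33.8 and 33.2 CPM with siJun, against 18.6, 21.4, 16.2 and 19.2 CPM with siCONTROL (1.80-fold, SE 0.126 on the log2 scale, adjusted p = 3.1e-05). Like Junb it was far higher at t=0, at 208 CPM. Klf9, a factor that restrains axon growth, had 23.1 to 29.0 CPM with siJun and 41.4 to 51.3 CPM with siCONTROL (1.75-fold lower, adjusted p = 1.5e-06), and Klf6, a factor that promotes it, had 116 to 143 CPM with siJun and 155 to 188 CPM with siCONTROL (1.32-fold lower, adjusted p = 0.0072). Crem, a cAMP response factor, fell 1.48-fold (adjusted p = 0.00050). Sox11, which also fell, is given above. In the fit to the 2 groups alone 4 of the 7 passed. Nfil3, a repressor, fell 1.41-fold but not in that fit (adjusted p = 0.071, the highest of its alternatives), and Hif1a, the oxygen-responsive factor, rose 1.27-fold but not in that fit or without siJun 3, siJun 4, siCONTROL 1 or siCONTROL 2 (adjusted p up to 0.14).

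Genes of apoptosis rose in 3 of 23 and fell in 2, and 3 of the 5 passed without siJun 3. Pmaip1, which codes for the death-promoting protein Noxa, had 18.3, 19.8, 18.4 and 23.7 CPM with siJun, against 41.1, 37.9, 30.6 and 35.5 CPM with siCONTROL (1.80-fold lower, adjusted p = 0.0034). Casp9, the initiator caspase, had 44.3, 45.0, 47.1 and 47.4 CPM with siJun, against 28.2, 32.4, 31.96 and 27.1 CPM with siCONTROL (1.53-fold, adjusted p = 9.2e-06), and Bid, also death-promoting, rose 1.66-fold (adjusted p = 0.0022). Death-promoting members thus moved both ways. Bcl2l1, which codes for the protective Bcl-xL, rose 1.32-fold, but not without siJun 3 (adjusted p = 0.059, the highest of its alternatives). Bak1 fell 1.34-fold, but missed in 13 of 17 alternatives, among them each of the 4 siJun libraries left out and siCONTROL 1 or 2 left out (adjusted p up to 0.21).

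Genes of the integrated stress response, which Atf4 controls, rose in 6 of 24 and fell in 0, with a median log2 fold change of 0.10, but only 2 passed without siJun 3. Fgf21 and Gdf15 are given above. Atf5, a factor related to Atf4, had 511, 485, 529 and 479 CPM with siJun, against 429, 365, 436 and 339 CPM with siCONTROL (1.28-fold, adjusted p = 0.015), but not without siJun 3, siCONTROL 2 or siCONTROL 4 (adjusted p up to 0.069). Ddit4, an inhibitor of mTOR signalling, rose 1.40-fold, but not without siJun 3 (adjusted p = 0.054, the highest of its alternatives). Nupr1, a stress-induced nuclear protein, rose 1.70-fold, but not without siJun 2, 3 or 4 or siCONTROL 2 or 4, nor with the block in the 2 groups alone (adjusted p up to 0.14). The arginine transporter gene Slc7a1 rose 1.18-fold, but not without siJun 1, 3 or 4 or siCONTROL 1 or 3, with no filter on low counts or in the 2 groups alone with or without the block (adjusted p up to 0.17). Of 18 ER chaperones 1 fell, Sdf2l1, with 51.1 to 53.3 CPM with siJun and 80.7 to 92.0 CPM with siCONTROL (1.68-fold lower, adjusted p = 1.8e-07), and 2 passed without siJun 4, siCONTROL 2 or siCONTROL 3, without siKlf6 1 and siRest 1, with DESeq2, its size factors or limma-voom, at a mean of 5 CPM, and with the block.

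In glycolysis 1 of 20 genes rose and 2 fell. Hk1, the hexokinase of neurons, had 214, 215, 179 and 179 CPM with siJun, against 399, 414, 347 and 372 CPM with siCONTROL (1.95-fold lower, SE 0.067 on the log2 scale, adjusted p = 6.3e-11). Slc2a3, the neuronal glucose transporter GLUT3, moved the other way with 128, 129, 128 and 115 CPM with siJun, against 68.9, 72.3, 71.3 and 73.0 CPM with siCONTROL (1.75-fold, SE 0.076, adjusted p = 1.9e-08). The transporter brings glucose into the cell and the hexokinase takes its first step, and neither gene overlapped between the groups. The glucose transporter gene Slc2a1 fell 1.17-fold, but missed in 11 of 17 alternatives, without siJun 2, 3 or 4 or siCONTROL 1 or 2 among them (adjusted p up to 0.19). In cholesterol synthesis 1 of 22 fell, the regulator Insig1 (1.30-fold lower, adjusted p = 0.00078), and 2 passed without siJun 4.

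Synaptic genes rose in 2 of 25, Nptx1 and the vesicle protein gene Sv2a (1.61-fold, adjusted p = 0.0049), and fell in 2, while 7 in all passed with DESeq2. Slc17a6, the vesicular glutamate transporter of sensory neurons, had 220 to 244 CPM with siJun and 281 to 323 CPM with siCONTROL (1.27-fold lower, adjusted p = 0.00029), and Syn1, synapsin, had 203 to 214 CPM with siJun and 249 to 265 CPM with siCONTROL (1.22-fold lower, adjusted p = 0.0012). Of 23 interferon response genes Aim2 alone fell and 0 rose, and 2 passed in the fit to the 2 groups alone. Their median log2 fold change was 0.38 with 21 of 23 higher, but their summed level overlapped at 643 to 792 CPM with siJun and 537 to 681 CPM with siCONTROL. The direction differed with the group siJun was set against. Over the 6 other knockdowns the median was -0.46, with 20 of 23 lower and 2 passing as falls, and against siAtf3 it was -0.14, with 15 of 23 lower.

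Marker genes of other cells were present in all 8 libraries. The summed level of 16 pan-neuronal markers was 13768 to 17049 CPM with siJun and 16208 to 20231 CPM with siCONTROL, which overlapped; 2 rose (Prph and Pou4f1) and 3 fell (Tubb3, Nefl and Gap43). Pou4f1, the sensory neuron factor Brn3a, had 166, 170, 194 and 173 CPM with siJun, against 132, 117, 109 and 132 CPM with siCONTROL (1.44-fold, adjusted p = 0.00015). The 11 satellite glia markers summed to 930 to 1149 CPM with siJun and 1202 to 1391 CPM with siCONTROL, without overlap, and Glul alone among them fell. Glul, glutamine synthetase, had 181, 177, 157 and 154 CPM with siJun, against 391, 443, 300 and 383 CPM with siCONTROL (2.27-fold lower, SE 0.112 on the log2 scale, adjusted p = 2.3e-08), while the median log2 fold change of the 11 was 0.09.

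The 12 Schwann cell markers summed to 1432 to 1841 CPM with siJun and 1675 to 1982 CPM with siCONTROL, and 1 fell, Pmp22 (1.501-fold, adjusted p = 4.3e-05). Of 9 genes of repair Schwann cells, in which Jun is known to act, 2 fell, Bdnf and the morphogen gene Shh, which had 2.24 to 5.18 CPM with siJun and 7.18 to 10.8 CPM with siCONTROL (2.41-fold lower, adjusted p = 0.0035). Their summed level was 512 to 610 CPM with siJun and 495 to 544 CPM with siCONTROL. Of 11 endothelial and mural markers Rgs5 alone fell (1.44-fold, adjusted p = 9.3e-05), with sums of 232 to 272 CPM with siJun and 255 to 333 CPM with siCONTROL. Cell cycle genes were all lower, 12 of 12 with a median log2 fold change of -0.37, but only Cdk1 passed (2.45-fold lower), and not without siJun 2, siJun 3, siCONTROL 2 or siCONTROL 4 (adjusted p up to 0.095).

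No marker of fibroblasts (8 tested; sums 182 to 292 CPM with siJun and 143 to 296 CPM with siCONTROL), macrophages (4 of 12 tested; 23.6 to 35.5 CPM with siJun and 28.8 to 47.9 CPM with siCONTROL) or red cells (3 of 5 tested; 5.52 to 13.2 CPM with siJun and 4.44 to 12.0 CPM with siCONTROL) passed. Lymphocyte and granulocyte markers, 2 of 10 tested with neither passing, summed to 16.4 to 20.01 CPM with siJun and 11.1 to 14.1 CPM with siCONTROL. The markers C1qc, Cd3e, Cd3g, Ms4a1, Csf3r, Hbb-bt and Alas2 had 0 counts in all 8 libraries. Large-diameter neuron markers rose in 1 of 12 (Kcns1), with sums of 915 to 1610 CPM with siJun and 931 to 1467 CPM with siCONTROL. The 13 mitochondrially encoded genes held 22231 to 49019 CPM with siJun and 23044 to 36394 CPM with siCONTROL, and 0 passed. The part of glia, of cell number and of the mitochondrial share in the differences above was not tested.

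siJun was also set against the mean of the 6 other knockdowns, a comparison that does not use the siCONTROL libraries. Here 974 genes rose (6.55%) and 811 fell (5.45%). These comparisons share the siJun libraries, so agreement between them is partly built in, and the values are given side by side. Of the genes with the largest folds against siCONTROL, 13 of 15 rises and 15 of 15 falls also passed here in the same direction, the exceptions being Slc16a14 and 1700019D03Rik. A total of 6 rises (Nptx1, Tac1, Cdsn, S1pr3, Tmem173 and Nell2) and 5 falls (Xirp2, Inhba, Star, Mmp12 and Jun) had all 4 siJun libraries outside the range of all 28 other siRNA libraries. The siCONTROL libraries are among the 28, and the genes were chosen for not overlapping them, so part of this is built in. The share of all genes that lies outside the 28 was not worked out, so these counts only describe the named genes. Tac1 averaged 516 ± 94.7 CPM with siJun, 206 CPM with siAtf3, 90.002 CPM with siAtf4, 195 CPM with siStat3, 164 CPM with siKlf6, 132 CPM with siRest, 145 CPM with siAlyref and 119 ± 17.1 CPM with siCONTROL (SD, n = 4). It was 3.45-fold higher with siJun than over the 6 others (adjusted p = 2.2e-12).

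**Figure D5:**
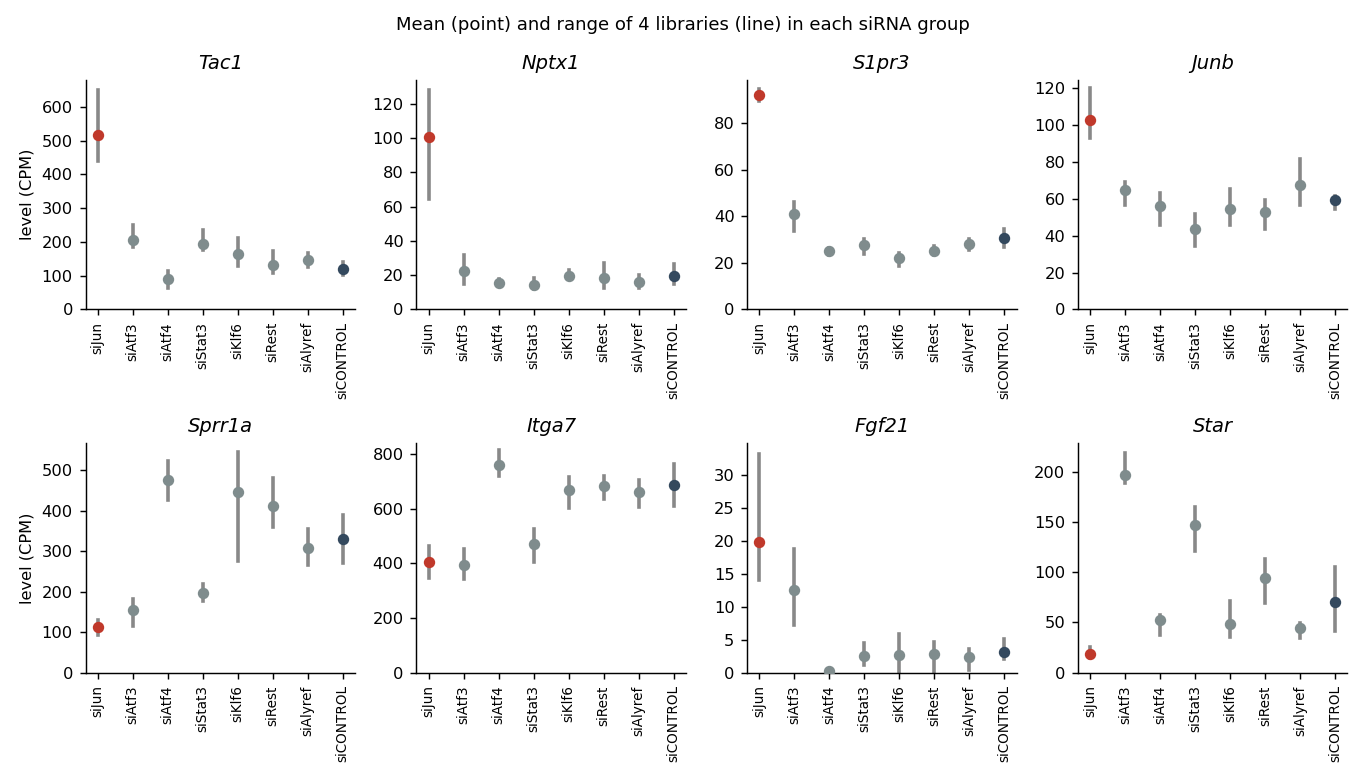
Mean level in CPM (point) and range of 4 libraries (line) of 8 genes in the 8 siRNA groups, siJun in red at the left and siCONTROL in dark blue at the right. For Tac1, Nptx1, S1pr3 and Junb all siJun libraries lie above every other library and for Star below, while for Sprr1a, Itga7 and Fgf21 siAtf3 lies near siJun.

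Of the regeneration-associated genes 15 of 35 fell and 0 rose against the 6 others, with a median log2 fold change of -0.22. Sprr1a was 2.74-fold lower with siJun than over the 6 others (adjusted p = 8.1e-09), Stmn4 1.71-fold, Plaur 1.53-fold and Tubb6 1.52-fold. Sodium channels rose in 4 of 11 here too, and nociceptor markers in 6 of 18. Inhba, at 15.6 ± 2.69 CPM with siJun, spread widely over the other groups, with 33.2 CPM with siAtf3, 223 CPM with siAtf4, 55.7 CPM with siStat3, 100.4 CPM with siKlf6, 63.2 CPM with siRest, 72.9 CPM with siAlyref and 61.2 ± 11.5 CPM with siCONTROL (SD, n = 4). Genes of the integrated stress response rose in 15 of 24 against the 6 others, a mean that includes siAtf4, in which Fgf21 averaged 0.1998 CPM.

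siAtf3 was aimed at a known dimer partner of Jun, and the direct comparison of siJun with siAtf3 gave 891 rises (5.99%) and 578 falls (3.89%). In it 6 of 35 regeneration-associated genes fell and 2 rose, with a median log2 fold change of -0.02, against -0.41 beside siCONTROL. The cytoskeleton genes had a median of 0.06 against siAtf3 and -0.14 over the 6 others, and the integrated stress response genes -0.06 against siAtf3 and 0.37 over the 6 others. Itga7 averaged 406 ± 55.0 CPM with siJun, 395 CPM with siAtf3 and 688 ± 65.6 CPM with siCONTROL, and Glul 167 ± 13.9 CPM with siJun, 175 CPM with siAtf3 and 379 ± 59.4 CPM with siCONTROL (SD, n = 4). Neither passed between siJun and siAtf3 (Itga7 adjusted p = 0.88, Glul adjusted p = 0.81), which does not show that they were alike.

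Other genes separated the 2 knockdowns. Stmn4 was 1.83-fold lower with siJun than with siAtf3 (adjusted p = 4.1e-08) and Itga5 2.00-fold lower (adjusted p = 8.4e-08). Crmp1 was 1.78-fold higher with siJun (adjusted p = 3.2e-09), and averaged 143 CPM with siJun, 80.6 CPM with siAtf3 and 221 CPM with siCONTROL. Star was 10.4-fold lower with siJun than with siAtf3 (adjusted p = 1.8e-11), with 19.1 ± 4.63 CPM with siJun, 196 CPM with siAtf3 and 70.5 ± 26.2 CPM with siCONTROL (SD, n = 4). Of the largest rises against siCONTROL, Nptx1, Tac1, S1pr3, Tmem173 and Nell2 also passed against siAtf3, and of the falls Xirp2, Qrfpr, Inhba, Star, Mmp12 and Jun did. Nociceptor markers rose in 9 of 18 and sodium channels in 3 of 11 against siAtf3, with Scn9a 1.85-fold and Scn10a 1.75-fold higher with siJun.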

How the data were processed

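The siRNA and t=0 libraries were made with the Illumina Stranded mRNA Prep kit, per the labels' protocols. The authors deposited expected counts per gene (estimated, not whole), for which the submitters' processing notes name kallisto and GRCm39; no version, annotation release or scaling step is given in the sources used here. Small values multiplied by transcript length clustered near 2060 to 2120 bp, so the deposited counts appear weighted by length. The count model does not know this. Its effect on the filter, on the p-values and on the folds of genes with several transcripts was not tested.

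All 36 columns of the table were matched to samples by name, and 32470 of 34183 genes received a symbol from GENCODE annotation of GRCm38. Column totals of the compared libraries ranged from 3437120 to 6621566; this depth limits what can be said of genes at a few counts.

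Expected counts were rounded to whole numbers and tested with edgeR 4.0.16 in R 4.3.3 (filterByExpr by group, TMM, glmQLFit and glmQLFTest, two-sided), with all 8 siRNA groups (32 libraries) in 1 fit. Adjusted p are Benjamini-Hochberg values over the 14876 genes tested, and the threshold was 0.05. The other two contrasts came from the same fit. Alternatives changed the scaling, the filter (none, or a mean of at least 5 CPM), the tool (DESeq2 1.42.0, limma-voom 3.58.1), the libraries or the block.

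Named genes were the 15 largest folds each way among genes that passed, did not overlap between groups and had a mean of at least 5 CPM in the higher one, members of 34 gene lists (589 genes, all found), and the targeted genes. A few members of the lists are counted but not reported here by name. The comparison and the lists were chosen with earlier results of these data known. Lists were described by counts and medians, and no set test was run. The procedure was also run on simulated counts with known folds. These had the same spread setting for every gene and no replicate structure, so the run cannot give the error rate in these libraries.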

Additional observations from a re-analysis of the deposited data

Results flagged for a closer look

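Among 141 named genes, the 4 siJun and the 4 siCONTROL libraries of each were searched for a library far from the other 3 of its group (its gap to the nearest over the range of the group, above Dixon's critical value). Of 282 groups 11 had one (3.90%), and chance gives about 1 in 20. In siJun, replicate 2 was the highest for Fgf21 (33.2 CPM), Tmem173 (70.0 CPM) and Map3k12 (42.4 CPM). Replicate 1 was the highest for Il24 (1.38 CPM), Tuba1b (789 CPM) and Rasal1 (2.07 CPM), and replicate 4 the lowest for Slc2a3 (115 CPM). In siCONTROL, replicate 1 was the highest for Tubb5 (1048 CPM) and the lowest for Rasal1 (3.30 CPM), replicate 2 the lowest for Xirp2 (3.76 CPM), and replicate 4 the lowest for Junb (54.7 CPM). Fgf21, Tmem173, Slc2a3, Xirp2, Rasal1 and Junb kept their direction and passed the test without each of these libraries in turn. Tubb5 did not pass without siCONTROL replicate 1, the library flagged for it. Il24 and Tuba1b passed without siJun replicate 1, the library flagged for them, but not without siJun replicate 2. Map3k12 had not passed with all libraries.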

How the results depend on the processing

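None of the 127 named genes that passed changed direction in any alternative run. Jun kept a log2 fold change of -1.82 to -1.70 with 1 library left out. Against siCONTROL the 474 rises and 683 falls became 516 and 723 with DESeq2, 589 and 674 with limma-voom, 487 and 675 with DESeq2 size factors in edgeR, 505 and 662 at a mean of 5 CPM, 361 and 550 with no filter, and 318 and 467 with siJun and siCONTROL fitted alone. With 1 library left out there were 325 to 423 rises and 530 to 653 falls. Without the shallow siKlf6 replicate 1 and siRest replicate 1, an alternative chosen after seeing the data, there were 556 and 716 against siCONTROL, 1095 and 837 against the 6 others, and 1018 and 590 against siAtf3. Regeneration-associated genes that fell numbered 19 to 25, sodium channels that rose 4 throughout, and cytoskeleton genes that fell 10 to 18. Nociceptor markers that rose numbered 4 to 7 with 1 library left out, and the cause was not tested.

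The labels give siJun and siCONTROL the same replicate numbers but no shared batch. The correlation of deviations of same-numbered libraries was 0.078, 0.125, 0.149 and 0.136, and that of differently numbered libraries -0.137 to 0.092. siJun replicates 2, 3 and 4 correlated best with the siCONTROL library of their own number, and siJun replicate 1 with siCONTROL replicate 2 (0.092). On the first principal component, the axis along which the 32 siRNA libraries differed most, siJun replicates 1 and 2 lay at -14.91 and -17. Replicates 3 and 4 of siJun lay at -25.78 and -25.36. For siCONTROL, replicates 1 and 2 lay at 10.72 and 9.72, and replicates 3 and 4 at -2.02 and 1.53. In each of the 6 other knockdowns replicates 1 and 2 also lay above the later numbers. This axis held 8.8% of the variance. Whether the numbers mark a shared preparation was not tested. The main fit did not pair the libraries, and the block gives the counts when the numbers are used. With the replicate number as a block, 692 genes rose and 928 fell against siCONTROL, 1231 and 1009 against the 6 others and 1203 and 795 against siAtf3; in the 2 groups alone the block gave 477 and 681. Under the block 25 regeneration-associated genes fell, 4 sodium channels rose, 18 cytoskeleton genes fell and 9 nociceptor markers rose, and the Jun log2 fold change stayed at -1.74. In either direction the block called 1620 of all 14876 genes tested, against 1157 without it. In the 2 groups alone it called 1158 of 13542, against 785. List counts under the block are to be read beside this general rise. They rose to 11 of 25 synaptic genes (9 in the 2 groups alone), 6 of 22 sensory transduction genes and 8 of 22 matrix protease genes. Calls also rose to 5 of 20 glycolysis genes, 3 of 22 cholesterol synthesis genes (2 in the 2 groups alone) and 3 of 18 neurotrophin and GDNF receptors.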
